A study of Mus musculus with 9 samples.

Results

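The 9 genes described here encode proteins that Myc works with on chromatin and proteins that mark Myc for destruction. Trrap, Ep400, Kat5, Ruvbl1, Ruvbl2, Actl6a and Dmap1 are the 7 genes of the TIP60/EP400 coactivator complex in the set, and Fbxw7 and Skp2 are 2 genes for F-box proteins that bind Myc. They were chosen by name, with earlier results of these data known, though no measured value enters the rule. All 9 were found among the 13499 genes of the authors' table, each under 1 Ensembl identifier, and all 9 were tested, since the filter on low values removed no gene.

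The series asked how RNA levels in mouse embryonic stem (ES) cells, cultured cells that can form every tissue of the embryo, differ with the amount of Myc. C57BL/6 ES cells on gelatine-coated plates in a medium with LIF, the cytokine that keeps them undifferentiated, were sorted on a cytometer by the fluorescence of GFP-Myc or of EYFP. Which of these reporters a given library comes from, and how the gates were set, is not stated in the labels. The groups are named High, Medium and Low by Myc level, and each has 3 libraries, which the labels call biological replicates.

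TRRAP is a very large scaffold protein that the transactivation domain of Myc binds, and through it Myc brings histone acetyltransferases to its target genes. In the TIP60/EP400 complex, KAT5 (also called TIP60) acetylates histones and EP400 is the ATPase that exchanges histone H2A for H2A.Z. RUVBL1 and RUVBL2 form a ring of ATPases, and ACTL6A and DMAP1 belong to the same complex. In ES cells this complex is known for its part in self-renewal. FBXW7 and SKP2 are the substrate-binding subunits of SCF ubiquitin ligases: FBXW7 recognises phosphorylated Myc and sends it to the proteasome, and SKP2 ubiquitinates Myc while also acting as a coactivator for it.

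Libraries held 11114936 to 16755566 recovered reads. Within Low, replicate 1 differed from replicates 2 and 3 by a chi-square per gene of 57.5 and 26.0, against 10.5 between those 2. Results that rest on it are also given without it. In how long transcripts fared against short ones, described below, Low replicates 2 and 3 were the lowest of the 9 libraries (-0.59 and -0.27, log2). Low replicate 1 (0.28) lay near Medium replicates 1 and 3 and High replicate 1 (0.30, 0.25 and 0.25). The sorted gene itself followed the labels: Myc signal, the authors' gene counts scaled by library size to near CPM, had a mean ± SD over 3 libraries of 106 ± 5.71 in High, 67.1 ± 2.54 in Medium and 26.0 ± 1.75 in Low. All 12 of 12 ES cell markers were measured. Their summed signal ran from 5679 to 7221 in Low, from 6617 to 7249 in Medium and from 6983 to 7771 in High. At an adjusted p under 0.05, the threshold of all marker counts here, 6 genes were higher and 0 lower in High than in Low. Nanog (288 ± 17.3 in Low, 247 ± 16.7 in High), Sox2 and Dppa5a had lower means in High without passing it. With the replicate number as a block, 8 were higher and 1, Nanog, was lower (limma adjusted p = 0.0338). Of 12 trophoblast markers 9 were measured (Cdx2, Elf5 and Hand1 were not analysed here), and their sum was 482 to 589.7 in Low, 227 to 247 in Medium and 137 to 145 in High, with 8 genes lower in High. Of 12 fibroblast or feeder markers 9 were measured (not S100a4, Lum and Pdgfrb), their sum was 517 to 975 in Low, 1018 to 1261 in Medium and 1171 to 1501 in High, and 3 (Vim, Thy1 and Fn1) were higher in High. Of 10 primitive endoderm markers 4 were measured (Sox7, Dab2, Sparc and Lama1, while Gata4, Gata6, Sox17, Pdgfra, Foxa2 and Hnf4a were not analysed here), with sums of 246 to 255 in Low, 396 to 412 in Medium and 491 to 510.2 in High, 3 of them higher and 1 lower. Neuroectoderm markers (6 of 7 measured) summed to 122 to 132 in Low, 123 to 129 in Medium and 116 to 120.5 in High, with 2 higher and 3 lower, and 1 of 7 primitive streak and mesoderm markers was measured, at 3.895 to 6.85 over the 9 libraries. The trophoblast and primitive endoderm sums did not overlap between populations, nor did the feeder sums of Low and High, while the ES cell sums overlapped. Most of the feeder sum was Fn1 (602 ± 234 in Low, 1059 ± 164 in High), and most of the primitive endoderm sum was Sparc (221 ± 8.62 and 428 ± 7.95). The feeder markers Col1a1, Col1a2, Col3a1, Postn, Dcn and Twist1 were not past the threshold. The part of these lists in the differences given below was not tested. In bulk RNA, fewer cells of a type and less RNA per cell cannot be told apart.

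Myc with its partner Max binds the E-box CACGTG, so the RefSeq promoter windows of the 9 genes (build GRCm38.p6, 250 bases before to 50 after each transcription start) were searched for it and for the related CACGCG, the latter on either strand, where it reads CGCGTG. All 9 genes matched, with 13 windows between them. CACGTG, which reads the same on both strands, was in 1 of the 13 windows, at position -186 from a start of Kat5 (the base before the start is -1). It was in 7.15% of all 32851 windows in the RefSeq table, and in 9.95% of the 12540 windows of genes in the authors' table. CACGCG was in 2 of the 13 windows, that of Ep400 (positions -212 and -176) and that of Ruvbl1 (43 bases into the transcript), against 9.27% of all windows and 17.1% of those of measured genes. The 250 bases before the start are shown 5′ to 3′ on the gene's strand for Kat5 (the E-box window, chr19:5610095-5610344, minus strand), Ep400 (the window with the variant in duplicate, chr5:110770718-110770967, minus strand) and Ruvbl2 (the gene whose RNA passed the test below, chr7:45434465-45434714, minus strand). Capitals mark matches to either motif. Ruvbl2 has none in this window, which says only that these letters are not there.
Kat5: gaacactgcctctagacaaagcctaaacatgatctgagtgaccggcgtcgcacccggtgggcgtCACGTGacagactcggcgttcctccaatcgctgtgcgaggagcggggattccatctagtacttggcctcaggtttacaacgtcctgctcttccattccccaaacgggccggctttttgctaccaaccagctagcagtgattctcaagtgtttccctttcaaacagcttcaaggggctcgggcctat
Ep400: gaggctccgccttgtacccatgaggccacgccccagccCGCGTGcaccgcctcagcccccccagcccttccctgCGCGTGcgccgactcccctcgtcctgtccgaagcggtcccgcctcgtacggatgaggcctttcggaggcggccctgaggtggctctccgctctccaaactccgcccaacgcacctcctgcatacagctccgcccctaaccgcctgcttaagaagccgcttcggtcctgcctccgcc
Ruvbl2: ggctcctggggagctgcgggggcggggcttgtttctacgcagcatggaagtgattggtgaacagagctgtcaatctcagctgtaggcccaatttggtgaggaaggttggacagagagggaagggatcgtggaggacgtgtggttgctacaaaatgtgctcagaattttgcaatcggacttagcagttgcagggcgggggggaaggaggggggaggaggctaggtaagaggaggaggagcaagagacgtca

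Between genes, levels were compared per kilobase of the longest GENCODE M21 transcript. Ruvbl2 (129.9 ± 14.7, SD over 9 libraries), Actl6a (118 ± 6.54) and Ruvbl1 (111 ± 8.16) were the highest in signal per kb, above 95.3% of measured genes. These 3 proteins also serve in other complexes. Dmap1 (20.1 ± 2.06), Kat5 (18.6 ± 1.94), Ep400 (16.2 ± 3.89), Trrap (12.8 ± 3.81), Skp2 (10.3 ± 0.610) and Fbxw7 (9.51 ± 0.989) followed. The ranges over libraries of neighbours in this order overlapped, except that the lowest Ruvbl1 value (98.7) lay above the highest Dmap1 value (22.5). With the median annotated transcript in place of the longest, Ep400 (median 974 nt) moved to the third place and Trrap (2621 nt) to the fifth. Ep400 (178 ± 42.7) then lay above Ruvbl1 (158 ± 11.7), and Dmap1 moved from rank 4 to rank 8. The order and the gap after Ruvbl1 thus depend on the length used.

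High against Low is the widest contrast in Myc. Ruvbl2 RNA rose 1.26-fold and was the 1 gene of 9 (11.1%) past an adjusted p of 0.05. Over all genes tested, 28.4% passed, 13.8% higher and 14.6% lower in High, so the share among the 9 genes was not above the background. For 5 of 9 genes (Kat5, Ruvbl1, Ruvbl2, Actl6a and Fbxw7, 55.6%) every High library lay above every Low library, where 20.2% of all genes did so. The exact two-sided permutation p of each of these 5 was 0.1, the smallest that 3 libraries against 3 can give. The highest Low and lowest High values lay close for Actl6a (235.7 and 238.5), Kat5 (38.5 and 39.9) and Fbxw7 (41.7 and 43.0). Counting error in those libraries was up to 1.84% for Actl6a, 4.55% for Kat5 and 4.55% for Fbxw7. The log2 difference was positive for 8 of 9, with a median of 0.21 against -0.000246 over all genes, and none of the 9 was lower in High past the threshold. Tests were limma's on log2 signal, with Benjamini-Hochberg adjustment over all 13499 genes. Leaving out Low replicate 1 keeps in Low only the libraries in which long transcripts fared worst against short ones. In that fit 4 of 9 passed (Trrap, Ep400, Ruvbl2 and Fbxw7), where 43.3% of all genes did. The log2 differences were then 0.30 for Ruvbl2, 0.18 for Ruvbl1, 0.19 for Kat5, 0.10 for Actl6a and 0.01 each for Dmap1 and Skp2. With the replicate number as a block, 4 of 9 passed (Trrap, Ruvbl1, Ruvbl2 and Fbxw7), where 38.8% of all genes did.

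**Figure D1:**
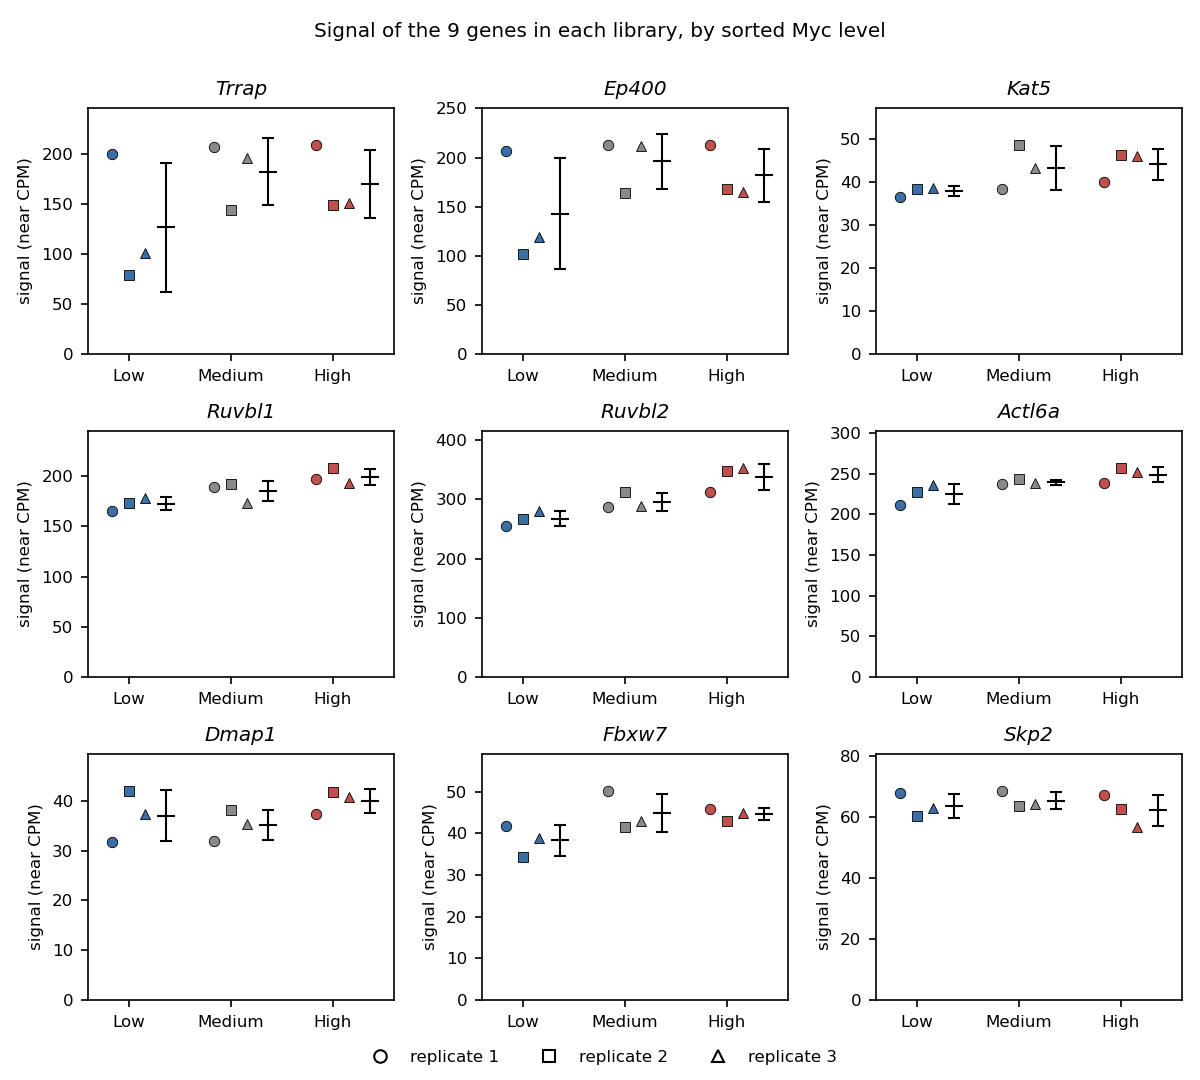
Signal (near CPM, linear axis from 0) of each of the 9 genes in every library, by population and replicate; horizontal bars with whiskers are the mean and SD of 3 libraries. High libraries lie above all Low libraries for Kat5, Ruvbl1, Ruvbl2, Actl6a and Fbxw7, while Trrap and Ep400 in Low spread from 79.1 to 199.97 and from 102 to 207.

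Ruvbl2 (ENSMUSG00000003868, chr7:45421760-45438096, minus strand, GRCm38), an AAA+ ATPase, had a signal of 255, 267 and 281 in Low replicates 1, 2 and 3. It was 286, 313 and 288 in Medium and 313, 348 and 352 in High. The 3 populations stood in the order of Myc, and High overlapped neither Low nor Medium, though the highest Medium library (312.7) lay just under the lowest High library (313.0). The Low mean was 267 ± 12.9 (SD, n = 3), the Medium mean 296 ± 14.9 and the High mean 338 ± 21.6. For High against Low the log2 difference was 0.33 (SE 0.08, 95% interval 0.15 to 0.51, limma adjusted p = 0.0131). The limma, edgeR or DESeq2 adjusted p stayed under 0.05 in 22 of 26 alternative settings. With limma it was 0.0579 without High replicate 2 and 0.0593 without High replicate 3. The settings reuse the same libraries and are not independent, and the fit with no filter equals the main fit. Ruvbl2 shares 310 exon bases (10.7% of its own) with Gys1, the glycogen synthase gene on the opposite strand, whose signal was 60.5 ± 5.59 in Low and 81.9 ± 1.94 in High (log2 difference 0.44, limma adjusted p = 0.00512). Whether counting used strand is not given in the sources used here, so reads of the 2 genes in the shared bases cannot be told apart.

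Its partner Ruvbl1 (ENSMUSG00000030079, chr6:88465409-88497572, plus strand) had a signal of 165, 173 and 178 in Low, 189, 192 and 174 in Medium and 197, 208 and 193 in High. High overlapped neither of the other populations, and Low and Medium overlapped. The log2 difference, High minus Low, was 0.21 (SE 0.07, 95% interval 0.04 to 0.37), a ratio of means of 1.16, with a limma adjusted p of 0.0615, and of 0.0368 with the replicate block. RUVBL proteins assemble in a common ring, and the ratio of Ruvbl2 to Ruvbl1 signal was 1.54, 1.54 and 1.57 in Low, 1.51, 1.63 and 1.66 in Medium and 1.59, 1.67 and 1.83 in High. Every High ratio exceeded every Low ratio (exact two-sided permutation p = 0.1, the smallest that 3 against 3 allows).

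Actl6a (ENSMUSG00000027671, chr3:32706298-32726973, plus strand) encodes an actin-related protein that also belongs to the BAF and INO80 chromatin remodellers. Its signal was 212, 227 and 236 in Low, 237, 243 and 239 in Medium and 239, 257 and 251 in High. Low lay below both other populations, which overlapped each other. Its log2 difference for High against Low was 0.15 (SE 0.07, limma adjusted p = 0.154), so it was not past the threshold. Actl6a shares 452 exon bases (11.6%) with the opposite-strand gene Mrpl47, whose log2 difference was 0.20 (limma adjusted p = 0.341).

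Kat5 (ENSMUSG00000024926, chr19:5603014-5610237, minus strand), the acetyltransferase, had a signal of 36.4, 38.5 and 38.5 in Low, 38.3, 48.5 and 43.2 in Medium and 39.9, 46.3 and 45.9 in High. The lowest High library lay above all of Low, and Medium overlapped both. The log2 difference for High against Low was 0.21 (SE 0.10, limma adjusted p = 0.151, and 0.0506 with the replicate block). Kat5 shares 426 exon bases (12.1%) with the opposite-strand gene Rnaseh2c, whose own log2 difference was -0.02 (limma adjusted p = 0.958).

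Dmap1 (ENSMUSG00000009640, chr4:117674681-117682273, minus strand), a subunit that also binds the DNA methyltransferase DNMT1, had a signal of 31.7, 42.0 and 37.3 in Low, 32.0, 38.1 and 35.4 in Medium and 37.3, 41.8 and 40.8 in High. The populations overlapped throughout, and replicate 1 was the lowest library in each of them. Its log2 difference for High against Low was 0.12 (SE 0.12, 95% interval -0.14 to 0.37, limma adjusted p = 0.485).

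For the subunits with the longest transcripts, replicates of a population spread widely. Trrap (ENSMUSG00000045482, chr5:144767732-144859778, plus strand), the scaffold, had a signal of 199.97, 79.1 and 101 in Low, 207, 144 and 196.5 in Medium and 209, 149 and 151 in High. Medium replicate 1 and High replicate 1 alone exceeded Low replicate 1, and Low replicates 2 and 3 lay below all 7 others. The mean was 127 ± 64.4 in Low, 183 ± 33.7 in Medium and 169.8 ± 34.0 in High. The log2 difference for High against Low was 0.52 (SE 0.30, 95% interval -0.15 to 1.19, limma adjusted p = 0.227). On leaving out 1 library it ran from 0.24 (without Low replicate 2, limma adjusted p = 0.587) to 0.90 (without Low replicate 1, limma adjusted p = 0.00361), and Low replicate 1 was the 1 library whose removal took it past the threshold. The limma adjusted p was 0.037 with the replicate block.

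Ep400 (ENSMUSG00000029505, chr5:110664373-110770717, minus strand), the H2A.Z exchange ATPase, had a signal of 207, 102 and 119 in Low, 212, 164 and 212 in Medium and 213, 168 and 165 in High. Its libraries stood in nearly the same order as those of Trrap, with Low replicates 2 and 3 again below all others. The log2 difference for High against Low was 0.40 (SE 0.23, 95% interval -0.12 to 0.93, limma adjusted p = 0.224). On leaving out 1 library it ran from 0.20 (without Low replicate 2, limma adjusted p = 0.568) to 0.70 (without Low replicate 1, limma adjusted p = 0.00334). The ratio of Trrap to Ep400 signal stayed between 0.774 and 0.984 over the 9 libraries.

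Trrap and Ep400 have the longest transcripts of the 9 genes, 12479 nt and 10685 nt, longer than those of 99.1% and 98.1% of measured genes with a length. Libraries differed in how long transcripts fared against short ones. The median log2 deviation of genes with transcripts of at least 4729 nt, minus that of genes of at most 2100 nt, was 0.28, -0.59 and -0.27 in Low replicates 1 to 3, 0.30, -0.05 and 0.25 in Medium and 0.25, -0.06 and -0.07 in High. The libraries with the lowest values are those with the lowest Trrap and Ep400. After the trend with length was taken out of each library, Trrap signal was 176, 118 and 131 in Low, 175, 146 and 165 in Medium and 173, 149 and 149.6 in High. The log2 difference for High against Low was then 0.16 (limma adjusted p = 0.363) for Trrap and 0.10 (limma adjusted p = 0.379) for Ep400. What made the length trend was not tested.

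**Figure D2:**
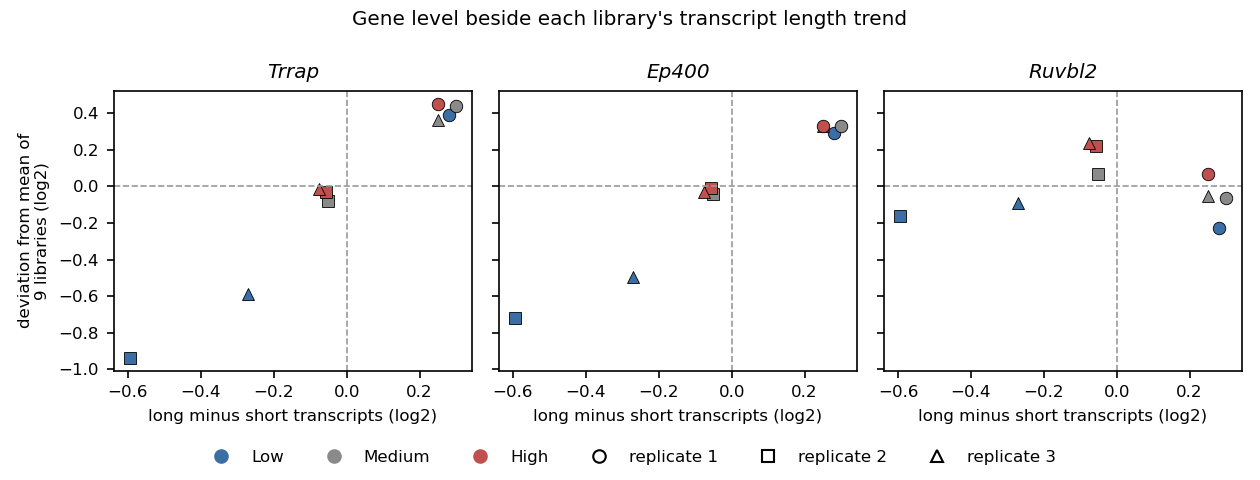
Log2 deviation of Trrap, Ep400 and Ruvbl2 from their mean over 9 libraries (vertical axis) against each library's long minus short transcript difference (horizontal axis, log2); colour gives the population and marker shape the replicate. Trrap and Ep400 lie near a line from Low replicate 2 (-0.59) to the libraries above 0.25, while Ruvbl2 is split by population.

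The same correction widened the differences of the genes with short transcripts, which run from 1675 nt for Ruvbl1 to 2312 nt for Ruvbl2. For High against Low the length-corrected log2 difference was 0.40 (limma adjusted p = 0.000378) for Ruvbl2 and 0.29 (limma adjusted p = 0.0123) for Ruvbl1. It was 0.29 (0.0142) for Kat5, 0.23 (0.00988) for Actl6a and 0.20 (0.0447) for Dmap1, with limma adjusted p-values in parentheses. In that fit 5 of 9 genes passed, all of them complex subunits with short transcripts, where 37.8% of all genes did. Combined with the replicate block, Fbxw7 joined them (limma adjusted p = 0.0429), giving 6 of 9 where 44.2% of all genes passed.

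Fbxw7 (ENSMUSG00000028086, chr3:84815268-84979198, plus strand), whose protein recognises phosphorylated Myc, had a signal of 41.7, 34.3 and 39.0 in Low, 50.1, 41.4 and 43.0 in Medium and 45.8, 43.0 and 44.8 in High. All High libraries lay above all Low libraries, and Medium overlapped both. Its log2 difference for High against Low was 0.22 (SE 0.10, 95% interval -0.01 to 0.44, limma adjusted p = 0.138). It was past the threshold with the replicate block (limma adjusted p = 0.0441) and without Low replicate 1 (log2 difference 0.28, limma adjusted p = 0.0490), and the difference fell to 0.14 (limma adjusted p = 0.352) without Low replicate 2.

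Skp2 (ENSMUSG00000054115, chr15:9111985-9155425, minus strand), the other F-box gene, had a signal of 67.9, 60.4 and 62.9 in Low, 68.6, 63.6 and 64.2 in Medium and 67.3, 62.6 and 56.9 in High. The populations overlapped, and the log2 difference for High against Low was -0.03 (SE 0.09, 95% interval -0.23 to 0.16, limma adjusted p = 0.804). Skp2 passed the threshold in 0 of 26 alternative settings, with limma, edgeR or DESeq2 adjusted p-values from 0.114 to 0.931. At this spread a High to Low ratio above 1.12 lies outside the 95% interval. The ratio of Fbxw7 to Skp2 signal was 0.613, 0.567 and 0.619 in Low, 0.730, 0.652 and 0.669 in Medium and 0.681, 0.688 and 0.788 in High. All High and Medium ratios exceeded all Low ratios (High against Low, exact two-sided permutation p = 0.1, the smallest that 3 against 3 allows).

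**Figure D3:**
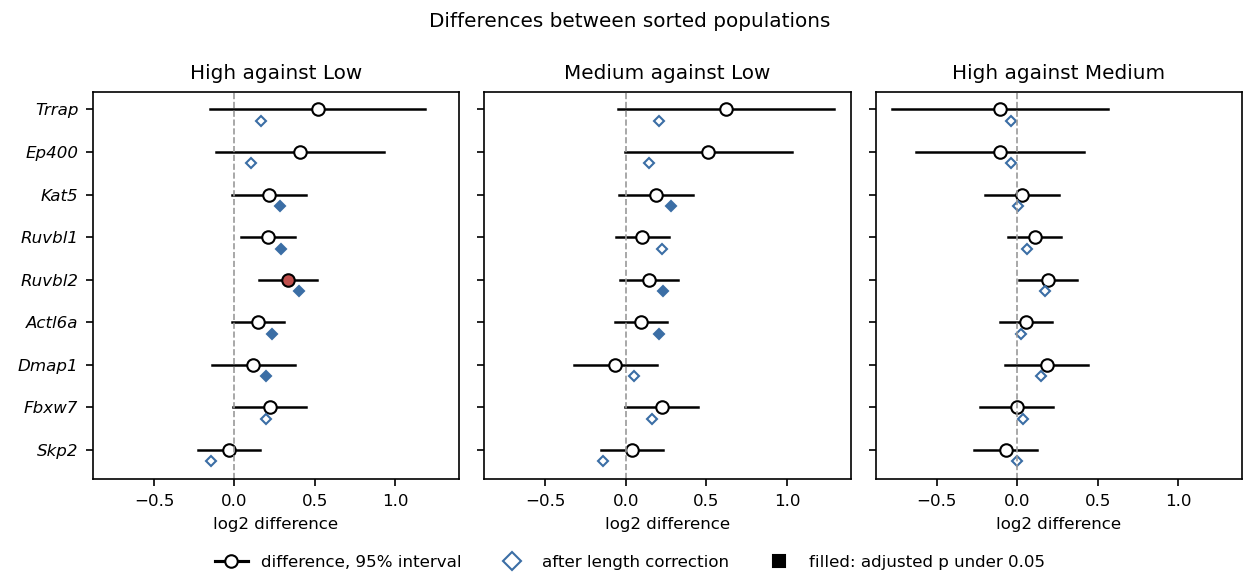
Log2 difference (horizontal axis) of each gene in the 3 comparisons, with 95% limma intervals, and after the transcript length correction (diamonds, no interval drawn); filled symbols have an adjusted p under 0.05. Uncorrected, Ruvbl2 for High against Low is the 1 filled circle, and Trrap and Ep400 have the widest intervals.

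Medium against Low asks whether the genes differ at the lower step of Myc, where Myc itself differed by 1.33 on the log2 scale. Of the 9 genes 0 passed, where 12% of all genes did. With limma, edgeR or DESeq2, 0 of 9 reached an unadjusted p under 0.05, where 4223, 4031 and 3892 of 13499 genes did. The limma log2 differences ran from -0.07 for Dmap1 to 0.62 for Trrap, with adjusted p-values from 0.166 to 0.780. Without Low replicate 1, Trrap (1.01, limma adjusted p = 0.00327) and Ep400 (0.81, limma adjusted p = 0.00266) passed, where 38% of all genes did, whereas without Low replicate 2 their differences were 0.34 and 0.31 and neither passed. After the length correction Kat5 (0.28, limma adjusted p = 0.0279), Ruvbl2 (0.23, 0.0179) and Actl6a (0.21, 0.0299) passed, where 20% of all genes did, and Trrap (0.21, 0.296) and Ep400 (0.14, 0.267) did not. In the uncorrected data Ruvbl2 (0.14) and Actl6a (0.09) were higher in every Medium library than in any Low library, where 14.5% of all genes were. For Actl6a the highest Low and lowest Medium values lay close (235.7 and 237.0), with counting errors of 1.84% and 1.60%.

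High against Medium covers the upper step, a Myc log2 difference of 0.66. Of the 9 genes 0 passed with limma, edgeR or DESeq2, where 0.407% of all genes did with limma. Ruvbl2 reached an unadjusted p under 0.05 (1 of 9 with limma, and also with edgeR and DESeq2), where 1468, 1484 and 1242 of 13499 genes did. Its log2 difference was 0.19 and its limma adjusted p was 0.425. Ruvbl2 and Ruvbl1 (0.11, limma adjusted p = 0.716) were higher in every High library than in any Medium library, where 9.34% of all genes were. The other 7 log2 differences ran from -0.11 to 0.18. Both steps share the Medium libraries, so their values are not independent.

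The last test asked whether Medium departs from the midpoint between the extremes on the log2 scale. Limma found 0 of 9 genes and 0 of 13499, a background of 0%. At an unadjusted p under 0.05 there were 766 genes with 0 of the 9, edgeR called 0 genes and DESeq2 21, also with 0 of the 9. Adjusted p-values for the 9 genes ran from 0.709 to 0.989 with limma, the estimates were 0.36 for Trrap and 0.31 for Ep400, and those of the other 7 lay between -0.12 and 0.11.

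Likeness to Ruvbl2 was measured by Pearson's correlation of log2 signal over the 9 libraries, among 9491 named genes above the 25th percentile of signal. The 3 most like it were Fpgs (r = 0.990), Psmd3 (0.985) and Narfl (0.977). Among the 9 genes themselves, in pairs picked out after their values were seen, Trrap and Ep400 had r = 0.998, and Ep400 was the second most like Trrap of all genes searched. Ruvbl2 with Actl6a had r = 0.92, Ruvbl1 with Ruvbl2 0.88 and Ruvbl1 with Actl6a 0.86, whereas Trrap with Ruvbl2 had 0.13. Actl6a ranked 122 in likeness to Ruvbl2, and Ruvbl2 ranked 53 to Actl6a. Ruvbl2 ranked 89 to Ruvbl1, and Ruvbl1 ranked 284 to Ruvbl2. Actl6a ranked 200 to Ruvbl1, and Ruvbl1 ranked 264 to Actl6a. Dmap1 with Skp2 had r = -0.81. These are descriptions over libraries that share depth, length trend and population, so no p is given.

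The genes around the 9 were read from 9 lists of related complexes and pathways. Of 13 other TIP60/EP400 subunits, 0 were higher and 1 was lower in High: Morf4l2, which fell from 652 ± 54.1 to 399.7 ± 15.0 (log2 difference -0.70, limma adjusted p = 0.000273). The median log2 difference of that list was 0.08. The SRCAP and INO80 complexes, which share RUVBL proteins with TIP60, had 3 of 15 higher and 0 lower, with a median of 0.09. Those 3 were the ATPase Ino80 (log2 difference 0.71) and the INO80 subunits Nfrkb (0.57) and Ino80e (0.32). SAGA, the other acetyltransferase complex that holds TRRAP, had 0 of 21 higher and 1 lower, Tada1 (-0.92, limma adjusted p = 0.00146), with a median of 0.06. For these lists too the reference is the 28.4% of all genes past the threshold and their median of -0.000246.

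Actl6a's other complexes, BAF and PBAF, had 4 of 22 measured genes higher and 1 lower, with a median of 0.10. Smarcd2 fell (log2 difference -0.53) while its paralog Smarcd1 rose (0.29). Dpf1 (0.71), a subunit known from neuronal BAF, and the core subunit Smarcc1 (0.52, limma adjusted p = 0.0424) rose. The R2TP and TTT chaperones, in which RUVBL proteins help to fold TRRAP and related kinases, had 2 of 8 higher and 0 lower, with a median of 0.13. Those 2 were Telo2 (0.36, limma adjusted p = 0.0212) and Ecd (0.25, limma adjusted p = 0.0237). Of 14 other Myc cofactors 3 were higher and 0 lower, with a median of 0.21. Those 3 were Wdr5 (0.34), which anchors Myc on chromatin, Zbtb17 (0.40), also called Miz-1, and Hcfc1 (0.67, limma adjusted p = 0.0451).

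Around the F-box genes, the SCF core and its regulators had 1 of 9 higher and 1 lower, with a median of -0.15. Skp1a, the adaptor that joins F-box proteins to the cullin, fell (log2 difference -0.47), and Fzr1, which directs the anaphase-promoting complex to SKP2, rose (0.36). Of 24 other Myc turnover genes 3 were higher and 1 lower, with a median of 0.00. Usp28, a deubiquitinase that counters FBXW7 on Myc, rose from 115 ± 24.2 to 193 ± 18.4 (log2 difference 0.77, limma adjusted p = 0.00415). Usp13 (0.57) and the ubiquitin ligase adaptor Spop (0.40) rose, and Ppp2r1a, the scaffold of the phosphatase PP2A, fell (-0.23, limma adjusted p = 0.0463). Of 13 other substrates of FBXW7 or SKP2, 1 was higher and 5 lower in RNA, with a median of 0.04. The transcription factor Klf5 rose (1.42), and Jun (-0.93) and the cell cycle inhibitors Cdkn1a (-1.09) and Cdkn1b (-0.55) fell. Mycn and Cdkn1c were the other 2 that fell. As a reference, Max, the partner of Myc, differed by 0.16 (limma adjusted p = 0.186), Pou5f1 by 0.42 (0.0519), Sox2 by -0.07 (0.510) and Mycn by -0.22 (0.0393).

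With the replicate block, under which 38.8% of all genes passed, the numbers higher and lower for High against Low were 1 and 1 for TIP60/EP400, 5 and 0 for SRCAP and INO80, 1 and 1 for SAGA, 8 and 2 for BAF and PBAF and 3 and 0 for R2TP and TTT. They were 2 and 1 for the SCF list, 4 and 5 for Myc turnover, 6 and 0 for cofactors and 1 and 5 for the substrates. On leaving out 1 library, every list had its most calls without Low replicate 1, where 43.3% of all genes passed: 7 for TIP60/EP400, 6 for SRCAP and INO80, 4 for SAGA, 13 for BAF and PBAF, 3 for R2TP and TTT, 5 for the SCF list, 9 for turnover, 9 for cofactors and 7 for the substrates. The fewest were 0 for R2TP and TTT (without Low replicate 2 or 3 or any High replicate), 1 for cofactors (without High replicate 3), 1 for SRCAP and INO80 (without Low replicate 3) and 2 for BAF and PBAF (without High replicate 2 or 3). Turnover had at least 2 (without Low replicate 2 or 3 or High replicate 1) and the substrates at least 4 (without Low replicate 3 or High replicate 1), and the other 3 lists had no fewer than with all libraries. Of the 24 list genes named by the rule, 14 passed whichever single library was left out. The other 10 lost the call in at least 1 case. Hcfc1 and Ppp2r1a lost it in 8 of 9 cases, Smarcc1 in 7 and Telo2 and Ecd in 5. Ino80e and Spop lost it in 4, Nfrkb and Smarcd1 in 2 and Zbtb17 in 1. Of these 10, 9 lost it without High replicate 3, 8 without Low replicate 3 and 7 each without High replicate 1 or High replicate 2. Without Low replicate 2 it was 6, without a Medium replicate 2 to 4 and without Low replicate 1 it was 0. Ino80e also lost it after the length correction (limma adjusted p = 0.180).

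**Figure D4:**
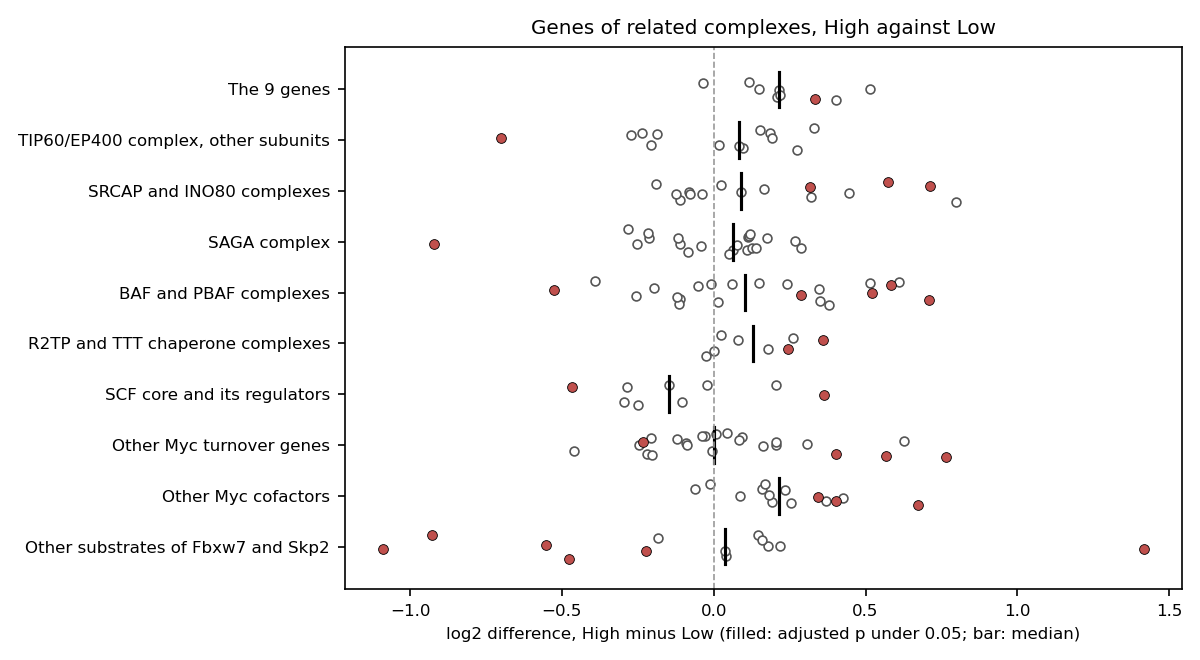
Log2 difference, High minus Low, of every measured gene in the set of 9 and in the 9 lists of related genes; filled points have a limma adjusted p under 0.05 and the vertical bar is the list's median. Medians run from -0.15 for the SCF list to 0.21 for the 9 genes and for the other Myc cofactors, and the widest spread is among substrates of FBXW7 and SKP2, from -1.09 to 1.42.

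The smallest count behind a value of the 9 genes was 383 reads (Fbxw7 in Low replicate 2), which gives a counting error of 5.11%, and the largest was 4740 (Ruvbl2 in High replicate 1), with 1.45%. The SD between replicates was 50.8% of the mean for Trrap in Low and 1.28% for Actl6a in Medium.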

How the data were processed

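RNA was measured in 9 libraries of sorted mouse ES cells, sequenced as single-end reads of 61 nt, per the labels' protocols. The authors deposited a signal per gene and library, gene counts scaled to near CPM. Column totals ran from 953055 to 1026948, and 100% of values were whole multiples of a read's value within 0.001 read. The submitters' processing notes list RSEM 1.17, limma, Picard and cutadapt without saying what each was used for. For the build, the annotation and the strand setting the entry is: not given in the sources used here. Of the genes, 85 had no name and stayed in the tests.

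Sample labels gave the groups. The model was limma 3.58.1 (R 4.3.3), fitted to log2(signal + 1 CPM of the library's own total) in all 9 libraries, with a trended variance and population as the only term. The filter of 1 CPM in at least 3 libraries kept all 13499 genes, and Benjamini-Hochberg adjustment covered them all, with a threshold of 0.05. Fold changes on this scale understate the change of low genes. Ratios are of mean signal. Transcript lengths and coordinates came from GENCODE M21 on GRCm38, with 13418 genes (99.4%) found by their Ensembl identifiers. The length correction took out a loess of log2 values on log2 length (span 0.3) in each library, and genes without a length were not corrected. The test was tried on simulated counts of 13319 genes for High against Low. It found 14.3% of changes of 1.25-fold, 68% at 1.5-fold and 94% at 2-fold. Of its 141 calls, 4 were false. The simulation gave every gene the same spread, changed few genes and held no length trend or other library effect. Real replicates spread unevenly (SD 50.8% of the mean for Trrap in Low), so these rates need not hold for the data.

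Replicate numbers are shared across populations. Deviations from population means correlated at 0.53, 0.26 and 0.18 between same-numbered High and Low libraries, all over 0.1, so blocked values are given for that comparison. High replicate 3 with Low replicate 2 (0.31) and High replicate 2 with Low replicate 3 (0.12) also exceeded 0.1, so the rule does not single out the numbered pairs. High and Medium (0.35, 0.17 and -0.04) and Medium and Low (0.24, 0.43 and -0.11) did not meet it. Replicates differed by more than counting noise (chi-square per gene 2.38 to 57.5).

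The 9 genes, the lists and the tests were chosen with earlier results of these data known. Named genes were the 9, up to 4 genes per list with the smallest adjusted p past the threshold for High against Low, the 3 genes most like each called gene, and Pou5f1, Sox2, Myc, Mycn and Max. Alternative settings were other pseudocounts and filters, scalings, variance models and weights, the block, the length correction, leaving libraries out, and edgeR 4.0.16 and DESeq2 1.42.0 on recovered reads.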

Additional observations from a re-analysis of the deposited data

How the results depend on the processing

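Direction held for Ruvbl2 in all 26 alternatives for High against Low (log2 difference 0.23 to 0.40). Its call was lost with quantile normalization (0.23, limma adjusted p = 0.0549), without High replicate 2 or 3, and without Low replicates 1 and 2 together (0.26, limma adjusted p = 0.0964). The number of the 9 genes called for High against Low, 1 in the design as fixed, was 0 with quantile normalization, 2 with DESeq2, 5 with the length correction and 2 without Low replicates 1 and 2 together. Leaving out 1 library gave 0 (without High replicate 2 or 3, with 2510 and 2625 of all genes) to 4 (without Low replicate 1, with 5846). Over all genes this comparison gave 3832, and 2345 (without Low replicate 3) to 5846 (without Low replicate 1) on leaving out 1 library.

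With the replicate block 4 of the 9 were called for High against Low, with 5239 genes in all (6 with length correction and block, with 5970 genes in all). For Medium against Low 2 were called, Trrap and Ep400 (4 with both). Over all genes the block gave 203 for High against Medium in place of 55, 3656 for Medium against Low in place of 1621 and 1 for the departure in place of 0; with the length correction as well it gave 480, 3771 and 2. The length correction alone gave 302 genes for High against Medium, 2696 for Medium against Low with 3 of the 9 (Kat5, Ruvbl2 and Actl6a), and 2 for the departure. Sample weights estimated gene by gene, added after seeing the data because the planned estimate did not converge and is not reported, gave 7850, 801, 7044 and 1153 genes for High against Low, High against Medium, Medium against Low and the departure, with 6, 1, 3 and 2 of the 9. Only the groups compared in the fit gave 170 and 656 genes for High against Medium and Medium against Low, and cannot be used for the departure. High against Medium gave 84 without a variance trend, 260 with DESeq2, 179 without Low replicates 1 and 2 and 11 to 206 on leaving out 1 library, with 0 of the 9 each time. Medium against Low gave 527 (without Low replicate 3) to 5123 (without Low replicate 1), with 0 to 2 of the 9. The departure gave 21 with DESeq2 and 0 to 68 (without Low replicate 1), with 0 of the 9.

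Signs of differences near 0 turned. On leaving out 1 library, Skp2 for High against Low ran from -0.0914 to 0.0278 (above 0 without Low replicate 1 or High replicate 3). For High against Medium, Kat5 ran from -0.0558 to 0.112 (below 0 without Medium replicate 1, High replicate 2 or High replicate 3) and Fbxw7 from -0.0569 to 0.0771 (above 0 without Medium replicate 1 or High replicate 2). Dmap1 for Medium against Low ran from -0.170 to 0.0272 (above 0 without Low replicate 2). Fbxw7 for High against Medium was 0.00801 with gene by gene weights and 0.0319 with the length correction, with or without the block. For Medium against Low, quantile normalization gave -0.000641 for Actl6a and -0.0273 for Skp2, and the length correction, with or without the block, gave 0.052 for Dmap1 and -0.141 for Skp2. The cause was not tested. With 3 libraries a group, the SD of Trrap in Low was 50.8% of the mean, where counting errors were 1.88%, 3.36% and 2.81%. Those libraries held 13545200, 11480782 and 12482552 recovered reads in all. Whether depth had a part in the spread of Trrap and Ep400 was not tested.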
